A study of Homo sapiens with 12 samples.

Results

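The genes described here serve protein folding in the endoplasmic reticulum (ER), the response to ER stress and ER-associated degradation (ERAD). They are 10 genes, HERPUD1, XBP1, DNAJB9, DERL1, HSPA5, HSP90B1, SEL1L, EDEM1, DNAJC3 and CALR, out of 11963 genes measured. They were chosen by symbol, as the probe sets that the array's annotation assigns to a single one of these genes. This gave 18 probe sets, and a gene's value is the mean of its probe sets. HSP90B1 shares 2 further probe sets with a microRNA gene in the annotation, and these were not used.

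The cells were RCC4, an established cell line of human clear cell renal carcinoma. All 4 groups were transfected with siRNA, 40 pmol per well, and collected after 72 h. Cells labelled siMESH1+siATF4 received siRNA against both MESH1 and ATF4, siMESH1 cells a single siRNA sequence against MESH1, siATF4 cells a pool against ATF4, and siNT cells a non-targeting control siRNA. How the 40 pmol were divided between the siRNAs in siMESH1+siATF4 is not given in the sources used here. Each group had 3 biological replicates per the labels, 1 array each, so 12 arrays in all. MESH1, encoded by HDDC3, is a cytosolic phosphatase of NADPH, and ATF4 is the transcription factor at the end of the PERK branch of the stress response. The study asked how the transcriptome responds to loss of MESH1 and how much of that response needs ATF4.

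Unfolded protein in the ER is sensed by IRE1, PERK and ATF6. IRE1 splices the XBP1 mRNA into the form that encodes an active transcription factor, ATF6 is cleaved to release another, and PERK phosphorylates eIF2α and thereby favours translation of ATF4. Together these raise chaperones of the ER lumen, such as the HSP70 family member HSPA5 (BiP), and the ERAD machinery, which recognises misfolded proteins, moves them back through the ER membrane and hands them to the proteasome. Secretory cells use the pathway at all times, and cancer cells often lean on it. The arrays measured total XBP1 transcript, which does not separate its spliced form.

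ATF6 and XBP1 act through ER stress response elements (ERSE), which pair a CCAAT box with a CCACG core. The sequences before the members' starts are shown because they tell the members apart that carry such an element from those that do not. They are RefSeq sequences of build GRCh38.p14, and 9 of the 10 members were matched, all but DERL1. Searched on both strands over 250 bases before the start, ERSE (CCAAT, then any 9 bases, then CCACG) was found before 4 members and before 0.074% of all 35116 starts in the table. Its second form ERSE-II (ATTGG, then any 1 base, then CCACG) was found before HERPUD1 among the members and before 0.0513% of all starts. The ATF6 and XBP1 motif TGACGTGG was found before 0 members and 0.612% of starts. The motif TGATGNAAN, bound by dimers of C/EBP and ATF4, was found before HERPUD1 and before 3.13% of starts. The CCACG core alone, which is part of ERSE, ERSE-II and TGACGTGG, was found before all 9 matched members and 33.5% of starts. The stretches below run 5′ to 3′ on the gene's own strand, and capitals mark both boxes of ERSE or ERSE-II and, as the first capitals of HERPUD1, the match to TGATGNAAN on the opposite strand.
HERPUD1 (chr16:56931953-56932047, plus strand): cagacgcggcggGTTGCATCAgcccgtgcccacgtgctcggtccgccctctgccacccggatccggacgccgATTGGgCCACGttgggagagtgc
XBP1 (chr22:28800591-28800633, minus strand): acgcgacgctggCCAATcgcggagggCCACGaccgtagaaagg
HSPA5 (chr9:125241379-125241421, minus strand): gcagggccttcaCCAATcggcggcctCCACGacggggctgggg
HSP90B1 (chr12:103930204-103930351, plus strand): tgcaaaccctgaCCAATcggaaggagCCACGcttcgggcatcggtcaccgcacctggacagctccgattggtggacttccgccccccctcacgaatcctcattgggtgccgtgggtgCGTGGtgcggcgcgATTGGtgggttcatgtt
CALR (chr19:12938372-12938414, plus strand): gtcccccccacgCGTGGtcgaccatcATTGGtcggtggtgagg
HSP90B1 carried 2 ERSE in this window, the second on the opposite strand, and the ERSE of CALR also lay on the opposite strand. XBP1 has 2 starts in the table, and its ERSE preceded the one shown. ERSE and ERSE-II are elements of ER stress genes, which the members were chosen to be. The shares of all starts are therefore background, and the matches before members are no test. A match is a description of letters and no evidence of binding in these cells.

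Values are log2 signals minus the siNT mean of the same probe set, so siNT averages 0 for every gene and no absolute level is known. A gene was called where its Benjamini-Hochberg adjusted p over all 11963 genes was under 0.05 and its difference was at least 0.5 on the log2 scale. Standard errors (SE) come from a limma fit across all 12 arrays. ATF4 was -2.27, -2.46 and -2.23 on the siMESH1+siATF4 arrays, -0.015, -0.104 and 0.035 on the siMESH1 arrays, -2.29, -2.33 and -2.30 on the siATF4 arrays and -0.101, 0.003 and 0.098 on the siNT arrays. It was low on every array that received ATF4 siRNA and on no other. MESH1 has 0 probe sets named for it alone, so its silencing was not analysed here.

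The array scaling bears on every value below. Array medians averaged 0.016 in siMESH1+siATF4, 0.027 in siMESH1 and 0.019 in siATF4, against 0 in siNT, but the mean of 10 measured housekeeping genes was -0.238 in siMESH1+siATF4, -0.352 in siMESH1 and -0.156 in siATF4 against siNT. The median of the same genes was -0.132, -0.253 and -0.025. Centring each array on these genes therefore moves every gene up by that amount in each silenced group, so the directions below are those of the deposited scale unless another is named. Some of these genes were themselves called, in siMESH1 vs siNT TFRC at -1.168, HPRT1 at -0.664 and PGK1 at -0.53. A large fall of a single gene such as TFRC weighs more on the mean than on the median. Which scale is the better one was not tested. The 3′ minus 5′ signal of ACTB, a sign of RNA length, was -0.300 in siMESH1+siATF4, -0.111 in siMESH1 and -0.293 in siATF4 relative to siNT. The same measure of GAPDH was -0.022, 0.077 and -0.090 in these groups, and the mean of 18 spike-in probe sets was 0.068, -0.023 and 0.247, against an SD of 0.058 over the siNT arrays. Their part in the results was not tested. Of 7 leukocyte genes and 8 endothelial and fibroblast genes measured, 0 were called in any of the 7 comparisons by limma, with at most 4 and 1 of them at an unadjusted p under 0.05. In siATF4 vs siNT 3 of the leukocyte genes passed the adjusted p alone, where 28.6% of all genes did. Of 10 renal markers measured, 0 were called higher and 2 lower in siMESH1 vs siNT, MUC1 at -0.927 and KRT18 at -0.537 (-0.185 and not called with housekeeping mean centring, -0.488 and not called without siNT replicate 2). Of all genes 2.82% were called higher there and 5.37% lower. KRT18 (0.626) and KRT19 (1.132) were called higher in siMESH1+siATF4 vs siNT, beside 4.4% of genes, and KRT19 (0.748) in siATF4 vs siNT, beside 2.49%. MUC1, KRT18, KRT19 and KRT8 were called higher in siMESH1+siATF4 than in siMESH1 (0.542 to 1.281), beside 3.42% of genes. The KRT8 call was lost with housekeeping mean (0.428) and median (0.421) centring and without siMESH1 replicate 3 (0.488). MUC1, KRT18 and KRT19 were called lower in siMESH1 than in siATF4 (-1.389 to -0.897), beside 4.75% of genes. Between siMESH1+siATF4 and siATF4, 0 were called. The interactions of MUC1 (0.702), KRT18 (0.668) and KRT19 (0.533) were called as deposited, beside 3.46% of genes upward, and not with housekeeping mean centring. Since the table holds differences, whether the renal markers of the line are present cannot be read from it. In bulk RNA of a culture, fewer expressing cells and less RNA per cell cannot be told apart.

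Silencing MESH1 alone moved 2 of the 10 members past the call, in opposite directions. HERPUD1, an ER membrane protein that gathers the ERAD ligase complex, rose 1.42-fold, and DERL1, a channel component of ERAD, fell 1.62-fold. Against siNT, 1 of 10 members was thus called higher where 2.82% of all genes were, and 1 of 10 called lower where 5.37% were. At the adjusted p alone, 5 members passed against 33.6% of all genes, HERPUD1 upward and XBP1, DNAJB9, DERL1 and HSPA5 downward, of which XBP1, DNAJB9 and HSPA5 turned sign with housekeeping mean centring. With housekeeping median centring DNAJB9 (-0.066) and HSPA5 (-0.085) stayed below siNT, and XBP1 was at 0.004. The median over the members was -0.131, beside 0.028 over all genes, and 0.221 with housekeeping mean centring.

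Neither group that received ATF4 siRNA had a member called against siNT, while 6 members in each had an unadjusted p under 0.05. At least 28.6% of all genes in siATF4 and 35.6% with both siRNAs did so too, since these passed the adjusted p. In siATF4 vs siNT, 0 members were called, where 2.49% of genes were higher and 4.03% lower, and 4 passed the adjusted p alone beside 28.6% of genes. These were DNAJB9 and SEL1L, higher, and XBP1 and DERL1, lower. With both siRNAs against siNT, 0 members were called, where 4.4% of genes were higher and 5.25% lower. Here 6 members passed the adjusted p alone beside 35.6% of genes, HERPUD1, DNAJB9, SEL1L and EDEM1 higher and XBP1 and DERL1 lower. The member median was 0.072 in siMESH1+siATF4, beside 0.013 over all genes, and 0.188 in siATF4, beside 0.02.

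Adding ATF4 siRNA to MESH1 siRNA also gave 0 calls among the members, 6 of which had an unadjusted p under 0.05. At least 28% of all genes did so too, since these passed the adjusted p. In siMESH1+siATF4 vs siMESH1, 3.42% of genes were called higher and 2.68% lower, and 6 members passed the adjusted p alone beside 28% of genes. DNAJB9, DERL1, HSPA5 and EDEM1 were higher in siMESH1+siATF4 and HERPUD1 and XBP1 lower. Between siMESH1+siATF4 and siATF4, 0 members were called, where 0.351% of genes were higher and 1.28% lower. By adjusted p alone 2 members passed there, HERPUD1 higher and DNAJB9 lower, beside 11.7% of genes. At an unadjusted p under 0.05 there were 6 members, beside at least the same 11.7% of genes.

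Between siMESH1 and siATF4, 2 members were called. DNAJB9 and DERL1 were called lower in siMESH1, 2 of 10 members beside 4.75% of genes, and 0 were called higher, beside 3.91%. By adjusted p alone 7 members passed, beside 33.5% of genes, HERPUD1 higher in siMESH1 and DNAJB9, DERL1, HSPA5, HSP90B1, EDEM1 and CALR lower. The member median was -0.305, beside 0.003 over all genes, and -0.109 with housekeeping mean centring. With that centring the members called were DNAJB9, lower, and HERPUD1, higher (0.629). The interaction asks whether MESH1 siRNA shifted a gene differently with ATF4 siRNA present (siMESH1+siATF4 vs siATF4) than without it (siMESH1 vs siNT), positive values meaning a higher shift with it. It was called for DERL1 alone. That is 1 of 10 members upward, where 3.46% of genes were called upward and 0.853% downward, and with HERPUD1 2 members passed the adjusted p alone beside 11.9% of genes.

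**Figure D1:**
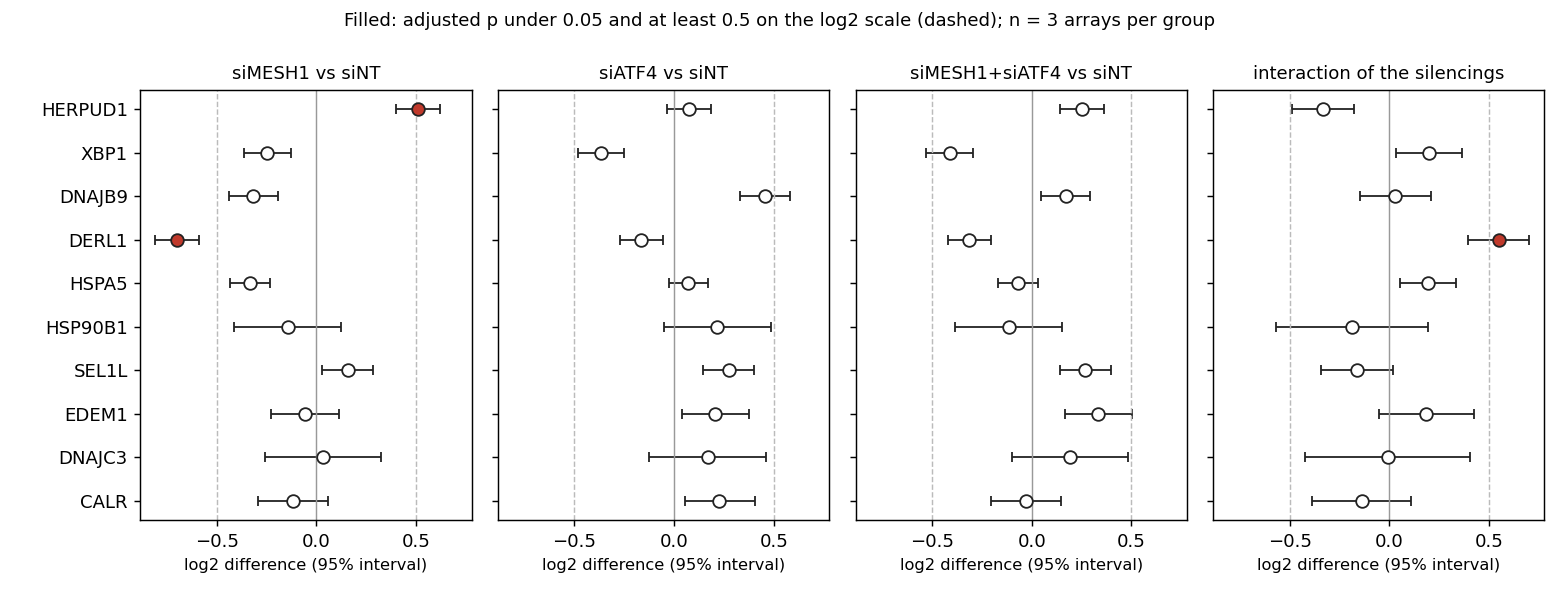
Log2 differences of the 10 members (rows) with 95% intervals from the limma fit, in each silenced group against siNT and for the interaction, n = 3 arrays per group. Filled points are called: HERPUD1 (0.509) and DERL1 (-0.699) in siMESH1 vs siNT and DERL1 (0.549) in the interaction, and dashed lines mark 0.5.

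HERPUD1, the member with the ERSE-II shown above, was read by 1 probe set. Its values were 0.284, 0.265 and 0.205 in siMESH1+siATF4, 0.558, 0.542 and 0.427 in siMESH1, 0.083, 0.047 and 0.097 in siATF4 and -0.041, 0.044 and -0.002 in siNT. The 4 groups did not overlap, in the order siMESH1, siMESH1+siATF4, siATF4 and siNT. Against siNT it was 0.509 higher in siMESH1 (SE 0.051, adjusted p = 6e-06). This lies just over the 0.5 minimum, and it was not called once replicate 1 of siMESH1 (0.485), replicate 2 of siMESH1 (0.492) or replicate 1 of siNT (0.488) was left out, nor with array median centring (0.483). With both siRNAs the difference from siNT was 0.251 (SE 0.051, adjusted p = 0.0017), and the siMESH1+siATF4 minus siMESH1 difference was -0.258 (adjusted p = 0.002). In siATF4 the difference from siNT was 0.076 (95% interval -0.035 to 0.186, adjusted p = 0.31). The interaction was -0.334 (SE 0.072, adjusted p = 0.0094), short of the fold minimum, and -0.603 and called with housekeeping mean centring. HERPUD1 was higher in siMESH1 than in siNT on all 4 array scales, between 0.483 and 0.861.

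DERL1 forms part of the channel through which misfolded proteins leave the ER. It was -0.289, -0.334 and -0.318 in siMESH1+siATF4, -0.641, -0.682 and -0.774 in siMESH1, -0.151, -0.189 and -0.150 in siATF4 and -0.006, 0.057 and -0.051 in siNT. No groups overlapped, and siMESH1 was lowest. DERL1 fell by 0.699 in siMESH1 against siNT (SE 0.05, adjusted p = 2.8e-07). The siMESH1+siATF4 minus siNT difference was -0.313 (adjusted p = 0.00028) and that of siATF4 -0.164 (adjusted p = 0.027). The interaction of 0.549 (SE 0.071, adjusted p = 0.00025) sets -0.150 in siMESH1+siATF4 vs siATF4 against -0.699 in siMESH1 vs siNT. The siMESH1 minus siATF4 difference was -0.535 (adjusted p = 3.4e-06), and -0.498, under the fold minimum, without replicate 3 of siMESH1. With housekeeping mean centring these values kept their sign but missed the fold minimum, at -0.347 in siMESH1 vs siNT, -0.339 in siMESH1 vs siATF4 and 0.279 for the interaction.

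The 2 probe sets of DERL1 differed in size. 218172_s_at averaged -0.295 in siMESH1+siATF4, -0.862 in siMESH1 and -0.050 in siATF4, relative to siNT. 219402_s_at averaged -0.332, -0.536 and -0.277 in the same order. Both were called in siMESH1 vs siNT, adjusted over all 19064 probe sets, of which 8.95% were called in either direction. The interaction was called for 218172_s_at (0.617, adjusted p = 0.00078), where 4.48% of probe sets were, and 219402_s_at gave 0.481 (adjusted p = 0.0023), below the fold minimum. 218172_s_at was also called in siMESH1+siATF4 vs siMESH1 (0.567, adjusted p = 3e-05). On this probe set siATF4 overlapped siNT, and on 219402_s_at it did not.

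SEL1L is the adaptor that stabilises the ERAD ligase HRD1, and EDEM1 helps to extract misfolded glycoproteins from the folding cycle. SEL1L was 0.291, 0.316 and 0.199 in siMESH1+siATF4, 0.188, 0.132 and 0.152 in siMESH1, 0.309, 0.291 and 0.221 in siATF4 and 0.018, 0.095 and -0.113 in siNT. All 9 silenced arrays lay above the 3 siNT arrays. The differences from siNT were 0.268 (SE 0.059, adjusted p = 0.0031) in siMESH1+siATF4, 0.157 (SE 0.059, adjusted p = 0.059) in siMESH1 and 0.274 (SE 0.059, adjusted p = 0.0036) in siATF4. With housekeeping mean centring they were 0.506 with both siRNAs and 0.509 in siMESH1, both called, and 0.430 in siATF4. Of its 4 probe sets, 202064_s_at was -0.069 in siMESH1 and the other three lay between 0.221 and 0.251. EDEM1, read by 1 probe set, was 0.453, 0.398 and 0.151 in siMESH1+siATF4, 0.033, -0.071 and -0.135 in siMESH1, 0.135, 0.267 and 0.219 in siATF4 and -0.058, 0.066 and -0.008 in siNT. The arrays with ATF4 siRNA lay above those without it. EDEM1 was 0.334 above siNT with both siRNAs (SE 0.078, adjusted p = 0.0044; 0.572 and called with housekeeping mean centring) and 0.392 above siMESH1 (adjusted p = 0.0021). In siMESH1 it differed from siNT by -0.058 (95% interval -0.227 to 0.111), a sign that turned with housekeeping mean centring (0.294).

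XBP1 encodes the transcription factor of the IRE1 branch. Its total transcript was -0.467, -0.419 and -0.348 in siMESH1+siATF4, -0.265, -0.251 and -0.220 in siMESH1, -0.376, -0.374 and -0.347 in siATF4 and 0.021, -0.095 and 0.074 in siNT. Every silenced array lay below every siNT array, and siMESH1+siATF4 and siATF4 overlapped. The differences from siNT were -0.411 (SE 0.054, adjusted p = 5e-05) with both siRNAs, -0.246 (SE 0.054, adjusted p = 0.003) in siMESH1 and -0.366 (SE 0.054, adjusted p = 0.00021) in siATF4. XBP1 was lower in both groups with ATF4 siRNA on all 4 array scales, while in siMESH1 it was 0.106 above siNT with housekeeping mean centring and 0.004 above with housekeeping median centring. The siMESH1+siATF4 minus siATF4 difference was -0.046 (95% interval -0.162 to 0.071, adjusted p = 0.68), and 0.036 with housekeeping mean centring.

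HSPA5 (BiP), the main HSP70 chaperone of the ER lumen and the partner that holds the stress sensors inactive, was read by 1 probe set. It was -0.043, -0.075 and -0.085 in siMESH1+siATF4, -0.336, -0.373 and -0.294 in siMESH1, 0.093, 0.020 and 0.104 in siATF4 and -0.025, 0.018 and 0.007 in siNT. The siMESH1 arrays were lowest by a wide gap. HSPA5 was lower in siMESH1 than in siNT on the deposited scale (-0.335, SE 0.046, adjusted p = 8.8e-05) and 0.017 above it with housekeeping mean centring. With housekeeping median centring HSPA5 stayed below siNT (-0.085). It was higher in siMESH1+siATF4 than in siMESH1 by 0.267 (SE 0.046, adjusted p = 0.00072), and by 0.153 with housekeeping mean centring. With both siRNAs it differed from siNT by -0.068 (95% interval -0.167 to 0.031, adjusted p = 0.29), or 0.170 with housekeeping mean centring, and in siATF4 by 0.072 (95% interval -0.027 to 0.172, adjusted p = 0.28). In siMESH1 it was lower than in siATF4 (-0.407, SE 0.046, adjusted p = 1.6e-05).

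DNAJB9 (ERdj4) and DNAJC3 (p58IPK) are J-domain proteins that deliver clients to HSPA5, and XBP1 is a known inducer of DNAJB9. As the mean of 2 probe sets DNAJB9 was 0.083, 0.227 and 0.203 in siMESH1+siATF4, -0.371, -0.278 and -0.298 in siMESH1, 0.474, 0.431 and 0.461 in siATF4 and 0.015, 0.075 and -0.090 in siNT. No groups overlapped, with siATF4 highest and siMESH1 lowest. The siMESH1 minus siATF4 difference was -0.771 (SE 0.057, adjusted p = 4.5e-07), a call that held on all 4 array scales (-0.778 to -0.543). Against siNT, DNAJB9 was 0.171 higher with both siRNAs (adjusted p = 0.034), lower in siMESH1 (-0.316, adjusted p = 0.00084) and 0.455 higher in siATF4 (adjusted p = 5.8e-05), which with housekeeping mean centring was 0.611 and called. In siMESH1 DNAJB9 turned sign to 0.036 with housekeeping mean centring and did not with housekeeping median centring (-0.066). It was 0.486 higher in siMESH1+siATF4 than in siMESH1 (SE 0.057, adjusted p = 3.8e-05), just under the fold minimum, and lower in siMESH1+siATF4 than in siATF4 (-0.285, adjusted p = 0.0064). Without siMESH1+siATF4 replicate 1 (0.530) or siMESH1 replicate 2 (0.505) the siMESH1+siATF4 minus siMESH1 difference was called. The interaction was 0.031 (95% interval -0.145 to 0.207, adjusted p = 0.87) as deposited and -0.239 with housekeeping mean centring.

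The 2 probe sets of DNAJB9 gave different answers. 202843_at was -0.088, 0.185 and 0.239 in siMESH1+siATF4, -0.641, -0.591 and -0.572 in siMESH1, 0.740, 0.571 and 0.645 in siATF4 and 0.099, 0.084 and -0.183 in siNT. 202842_s_at, whose suffix marks probes that may match more than one transcript, was 0.254, 0.268 and 0.167 in siMESH1+siATF4, -0.101, 0.035 and -0.024 in siMESH1, 0.208, 0.292 and 0.277 in siATF4 and -0.069, 0.066 and 0.003 in siNT. In siMESH1 the first lay below every siNT array and the second overlapped siNT. 202843_at was called in siMESH1 vs siNT (-0.601, adjusted p = 0.00034) and in siATF4 vs siNT (0.652, adjusted p = 0.00023), where 6.89% of probe sets were called. It was also called in siMESH1+siATF4 vs siMESH1 (0.713, adjusted p = 0.00012), beside 6.69% of probe sets, in siMESH1+siATF4 vs siATF4 (-0.540, adjusted p = 0.0033), beside 1.87%, and in siMESH1 vs siATF4 (-1.253, adjusted p = 6.6e-07), beside 9.39%. 202842_s_at was not called anywhere and gave -0.030 in siMESH1 vs siNT (95% interval -0.159 to 0.099) and 0.259 in siATF4 vs siNT (adjusted p = 0.0059). Against siNT, neither was called in siMESH1+siATF4 (0.112 and 0.230), where 10.5% of probe sets were. Which transcripts each probe set reads was not tested.

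**Figure D2:**
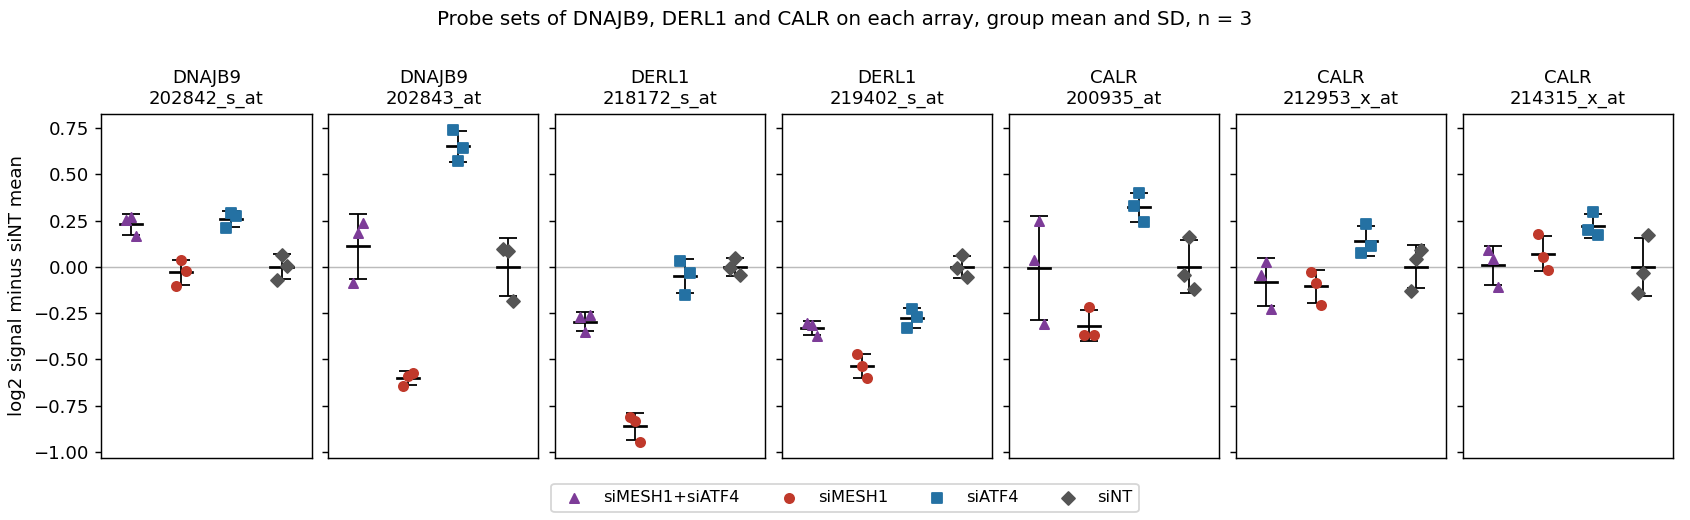
Values (vertical axis, log2 relative to the siNT mean) of each probe set of DNAJB9, DERL1 and CALR on the 12 arrays (points), with group mean and SD (bars, n = 3). The siMESH1 arrays lie between -0.641 and -0.572 on 202843_at of DNAJB9 and between -0.101 and 0.035 on 202842_s_at.

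DNAJC3 was scattered. It was 0.088, 0.316 and 0.176 in siMESH1+siATF4, -0.047, -0.108 and 0.255 in siMESH1, 0.515, -0.087 and 0.077 in siATF4 and -0.057, -0.022 and 0.078 in siNT. SiMESH1 replicate 3 and siATF4 replicate 1 stood apart from the other arrays of their groups. No comparison reached an adjusted p under 0.31, and the interval of the siMESH1 minus siNT difference ran from -0.259 to 0.326.

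HSP90B1 (GRP94) is the HSP90 chaperone of the ER lumen and CALR (calreticulin) a lectin chaperone that also stores calcium there. HSP90B1 was -0.135, -0.110 and -0.102 in siMESH1+siATF4, -0.350, -0.276 and 0.191 in siMESH1, 0.436, 0.135 and 0.079 in siATF4 and 0.047, -0.067 and 0.020 in siNT. SiMESH1 replicate 3 lay above all siNT arrays and the rest below them. HSP90B1 differed by -0.362 between siMESH1 and siATF4 (SE 0.124, adjusted p = 0.039), and by -0.530 without siMESH1 replicate 3 (adjusted p = 0.00096), which was a call. CALR was 0.030, 0.105 and -0.215 in siMESH1+siATF4, -0.072, -0.083 and -0.195 in siMESH1, 0.200, 0.309 and 0.176 in siATF4 and -0.104, 0.056 and 0.048 in siNT. Its siATF4 arrays lay above all others. CALR was lower in siMESH1 than in siATF4 (-0.345, SE 0.081, adjusted p = 0.005). Of its 3 probe sets, only 200935_at was called there (-0.640, adjusted p = 0.0011), while 212953_x_at and 214315_x_at, of a type that may cross-hybridise, gave -0.246 and -0.150. In siMESH1 vs siNT, HSP90B1 was -0.145 and CALR -0.117 as deposited, against 0.207 and 0.235 with housekeeping mean centring, and in siMESH1+siATF4 vs siNT they were -0.115 and -0.027, against 0.123 and 0.211.

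**Figure D3:**
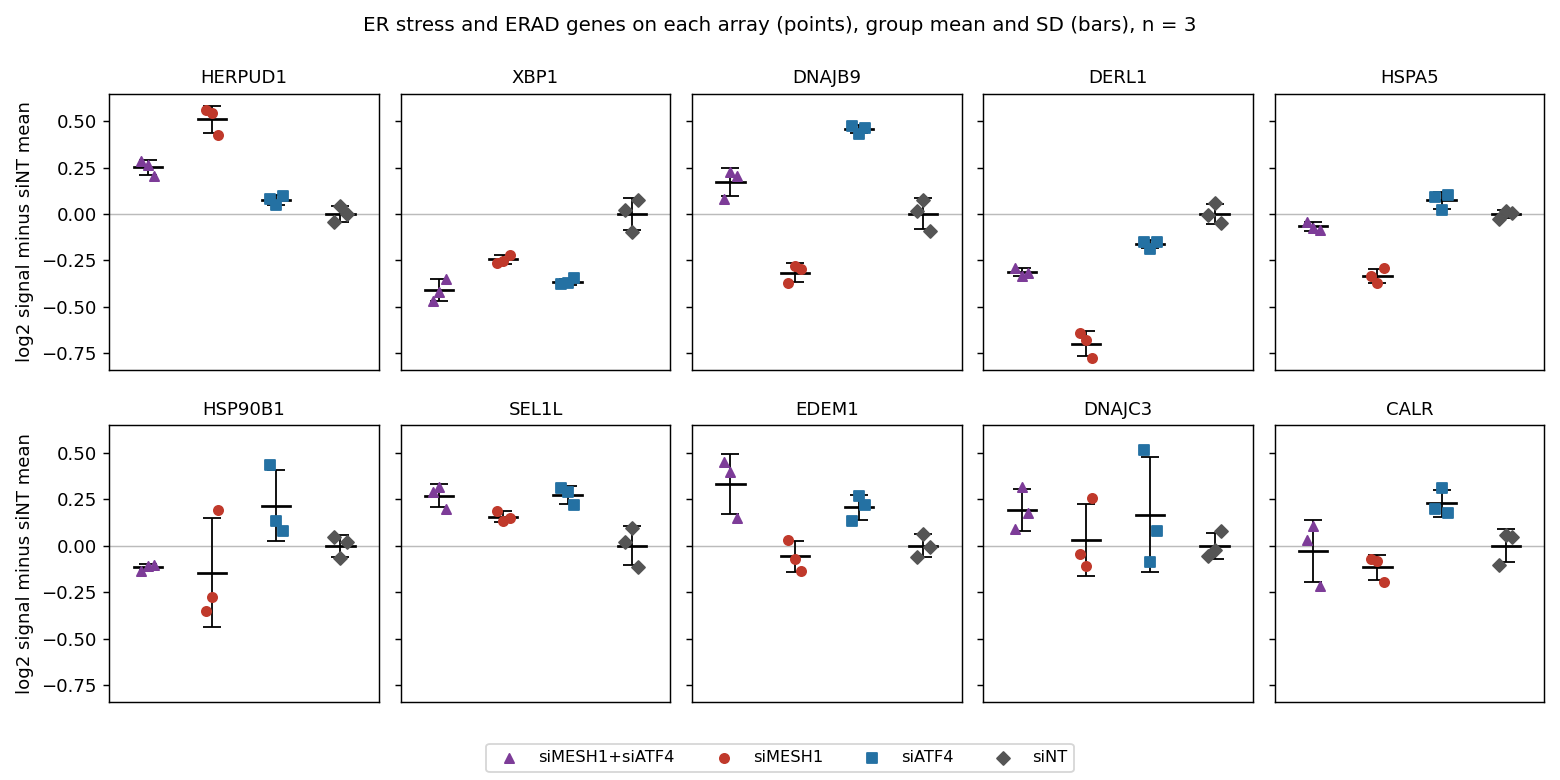
Values (vertical axis, log2 relative to the siNT mean) of each member on the 12 arrays (points), with group mean and SD (bars, n = 3). HERPUD1 is highest and DERL1 and HSPA5 are lowest in siMESH1, XBP1 is lower in every silenced group than in siNT, and DNAJB9 is highest in siATF4, all on the deposited scale. The signs of HSPA5 and XBP1 in siMESH1 vs siNT turn with housekeeping mean centring, and that of HSPA5 does not with housekeeping median centring (-0.085).

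Set beside the sequences, the 5 members with ERSE or ERSE-II did not share a direction on the deposited scale. In siMESH1 vs siNT the member with ERSE-II, HERPUD1, was at 0.509, and the 4 with ERSE were at -0.335 (HSPA5), -0.246 (XBP1), -0.145 (HSP90B1) and -0.117 (CALR). Of these, HSP90B1 (adjusted p = 0.42 by limma) and CALR (adjusted p = 0.32) did not pass the adjusted p. With housekeeping mean centring all 5 were positive, between 0.017 (HSPA5) and 0.861 (HERPUD1). So were DNAJB9 (0.036), SEL1L (0.509), EDEM1 (0.294) and DNAJC3 (0.385), which had neither element. With housekeeping median centring HSPA5 was at -0.085. In siATF4 vs siNT the first was at 0.076 and the 4 others ranged between -0.366 (XBP1) and 0.228 (CALR). HERPUD1, with the match to TGATGNAAN, differed from siNT by 0.251 with both siRNAs, 0.509 in siMESH1 and 0.076 in siATF4.

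Differences between members on the same array do not depend on the array scaling. The pairs were chosen after their values were seen, so they are given without a test. HERPUD1 minus HSPA5 was 0.319 ± 0.026 in siMESH1+siATF4, 0.844 ± 0.106 in siMESH1, 0.003 ± 0.021 in siATF4 and 0 ± 0.022 in siNT (SD, n = 3). HERPUD1 minus DERL1 was 0.564 ± 0.039, 1.208 ± 0.014 and 0.239 ± 0.007 in siMESH1+siATF4, siMESH1 and siATF4, and 0 ± 0.043 in siNT. In both pairs siMESH1 was the widest, and its arrays overlapped those of no other group. DNAJB9 minus XBP1 was 0.582 ± 0.055, -0.070 ± 0.040 and 0.821 ± 0.025 in the same groups and 0 ± 0.167 in siNT. Across the 4 scalings, 4 members kept their sign in siMESH1 vs siNT (HERPUD1, SEL1L and DNAJC3 higher, DERL1 lower) and 6 did not, while all 10 kept it in siATF4 vs siNT. A kept sign is no call. As deposited SEL1L (0.157, adjusted p = 0.059 by limma) and DNAJC3 (0.033, adjusted p = 0.88) did not pass the adjusted p in siMESH1 vs siNT.

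**Figure D4:**
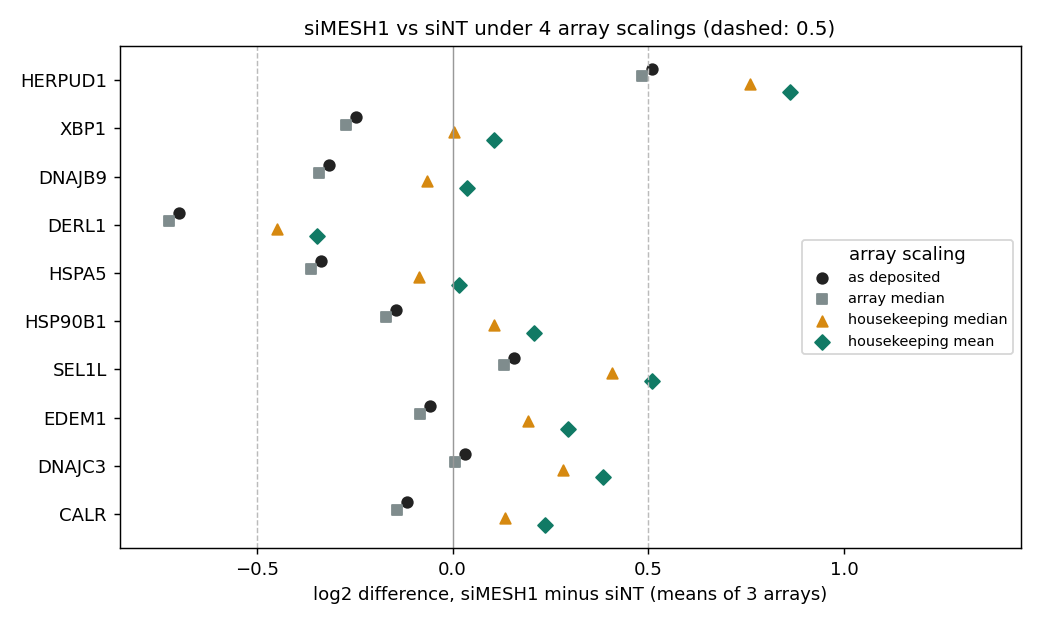
The siMESH1 minus siNT log2 difference (horizontal axis, means of 3 arrays) of each member as deposited and with 3 other array scalings. HERPUD1 runs from 0.483 to 0.861 and DERL1 from -0.725 to -0.347, while XBP1, DNAJB9, HSPA5, HSP90B1, EDEM1 and CALR lie on both sides of 0.

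The other genes of the pathway were taken from lists that exclude the members, except that DNAJC3 also stands in the PERK list. Their counts in siMESH1 vs siNT stand beside 2.82% of all genes called higher and 5.37% lower, and a median of 0.028. Of 23 ER chaperones and folding enzymes 0 were called higher and 1 lower, with a median of -0.192. The one was ERO1A, the oxidase that drives disulfide formation, which fell 2.28-fold to -1.08, -1.17 and -1.31 in siMESH1, against -0.004, 0.061 and -0.057 in siNT (adjusted p = 2.3e-07). Of 26 further ERAD genes 0 were called higher and 2 lower, with a median of 0.054. They were the ubiquitin ligase MARCHF6 (-0.617, adjusted p = 3.1e-06) and ERLIN1 (-0.552, adjusted p = 0.00022), a scaffold that presents the IP3 receptor for degradation. Of 17 sensors and transducers 0 were higher and 1 lower, the cargo receptor TMED2 (-0.549, adjusted p = 1.7e-05). The calls of MARCHF6, ERLIN1 and TMED2 were lost with housekeeping mean centring (-0.266, -0.200 and -0.197). With that centring, where 2904 of all genes were called higher and 279 lower, 2 of the 23 chaperones were called higher (ERO1B and SIL1) and 1 lower (ERO1A), with a median of 0.159. Of the 26 ERAD genes 6 were then higher and 0 lower, with a median of 0.405, and of the 17 sensors 4 were higher and 0 lower.

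Of 15 genes of the PERK, ATF4 and CHOP arm, 2 were called higher and 3 lower in siMESH1, beside 2.82% and 5.37% of all genes. CTH, a transsulfuration enzyme, rose to 0.674, 0.804 and 0.612 in siMESH1, against 0.078, 0.158 and -0.236 in siNT. CTH differed by 0.697 (adjusted p = 4.5e-05) and is named here after its values were seen. CEBPB, a transcription factor that pairs with ATF4, was 0.503 (adjusted p = 4.7e-06), and was not called with array median centring (0.477) or without siMESH1 replicate 1 (0.480), siNT replicate 1 (0.476) or siNT replicate 3 (0.492). TRIB3, a pseudokinase induced by ATF4 and CHOP, fell to -0.950, -0.964 and -0.922 in siMESH1, against -0.099, 0.067 and 0.032 in siNT, and TNFRSF10B (a death receptor) fell by 0.808, a call that housekeeping mean centring ended (-0.456). ERO1A, which stands on this list too, is the third. With both siRNAs 2 of the 15 were higher than in siNT (CEBPB at 0.920 and ATF3 at 0.570), where 4.4% of all genes were. Another 2 were lower (NUPR1 at -0.807 and TRIB3 at -0.528), where 5.25% were. ATF3 was also above siNT in siMESH1 (0.361, adjusted p = 0.0025) and in siATF4 (0.291, adjusted p = 0.012), both under the fold minimum. It was 0.209 higher in siMESH1+siATF4 than in siMESH1 (adjusted p = 0.06). In siMESH1+siATF4 vs siNT, ATF3 was 0.498 without replicate 3 of siNT and TRIB3 -0.494 without replicate 2 of siNT, neither then called. With housekeeping mean centring TRIB3 was -0.290 and not called. In siMESH1 vs siNT 5 of the 15 were called higher with that centring and 2 lower, beside 2904 and 279 of all genes. In siATF4 vs siNT 0 were higher and 1 lower, NUPR1 (-1.023, adjusted p = 1.7e-07), beside 2.49% and 4.03% of all genes.

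In the remaining steps of the secretory route, 0 of 36 genes of translocation and ER exit were higher and 3 lower in siMESH1 (SRPRB at -0.662, SAR1B at -0.585 and KDELR3 at -0.546). Over all genes 2.82% were called higher there and 5.37% lower. Of 23 genes of N-glycan synthesis 0 were higher and 1 lower (ALG9 at -0.514), and of 8 ER calcium genes 0 were higher and 2 lower, the IP3 receptor ITPR1 (-1.019, adjusted p = 3.8e-09) and the calcium pump ATP2A2 (-0.587, adjusted p = 1.7e-06). With housekeeping mean centring SRPRB, SAR1B, KDELR3, ALG9 and ATP2A2 were no longer called. The counts were then 10 higher and 0 lower of the 36, 1 and 0 of the 23, and 2 and 1 of the 8. They stand beside 2904 higher and 279 lower of all 11963 genes with that centring. DERL2 and EDEM2, relatives of members, moved just past the fold minimum in siATF4 vs siNT, DERL2, of the family of DERL1, at -0.505 (adjusted p = 4.4e-06) and EDEM2, of the family of EDEM1, at 0.506 (adjusted p = 6.7e-06). DERL2 was -0.349 with housekeeping mean and -0.483 with housekeeping median centring, -0.469 without replicate 2 of siNT and -0.496 without replicate 1 of siATF4. EDEM2 was 0.488 with array median centring, 0.483 and 0.488 without replicates 1 and 3 of siNT, and 0.496 and 0.491 without replicates 2 and 3 of siATF4, and none of these was called. EDEM2 was also higher in siMESH1+siATF4 vs siNT (0.657, adjusted p = 3.8e-07). ERO1A was 0.918 higher in siMESH1+siATF4 than in siMESH1 (adjusted p = 4e-06), and its interaction was 0.624 (adjusted p = 0.0041), or 0.355 and not called with housekeeping mean centring.

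**Figure D5:**
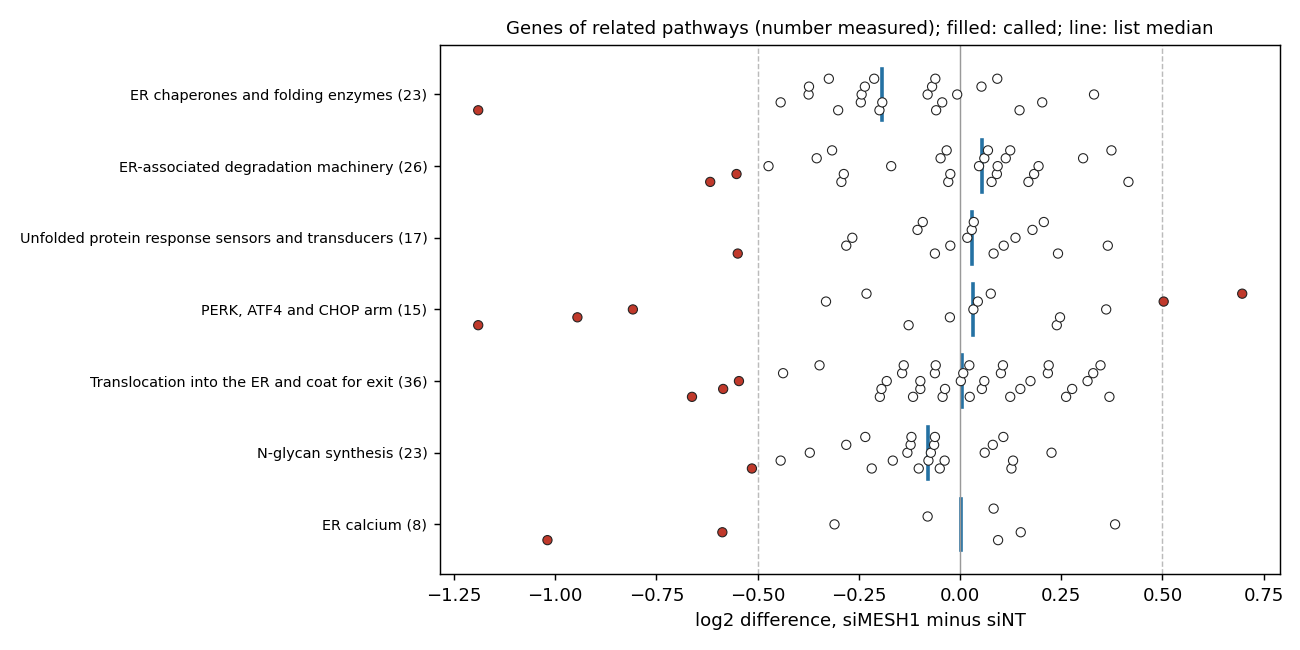
The siMESH1 minus siNT log2 difference (horizontal axis) of every measured gene of 7 related lists (rows, number measured in parentheses), on the deposited scale. Filled points are called, blue lines are list medians, between -0.192 for ER chaperones and 0.054 for ERAD, and ERO1A, at -1.19, stands in 2 lists.

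Over the 12 arrays the gene whose profile was most like that of HERPUD1 was CCNG2 (Pearson r = 0.987), followed by PIERCE1 (0.985) and MET (0.981). For DERL1 these were TUBB3 (0.994), MALT1 (0.993) and TDP2 (0.993), and for DNAJB9 RRAGD (0.986), CKAP4 (0.978) and RBM8A (0.978). XBP1 was most like CCT6A (0.960), HSPD1 (0.959) and NHLRC2 (0.957), and HSPA5 most like NECTIN3 (0.984), NFE2L3 (0.979) and MDH2 (0.978). Among the members, HERPUD1 ran against DERL1 (r = -0.941) and HSPA5 (-0.902), DERL1 ran with HSPA5 (0.895), and XBP1 ran against SEL1L (-0.960). These are descriptions over 12 arrays that share 4 group means, with the closest genes picked out of 11963.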

How the data were processed

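Total RNA of RCC4 cells was amplified and hybridised to Affymetrix human gene chips. The authors normalised the scans by RMA, a background correction, quantile normalisation and probe summary, run in Expression Console (versions: not given in the sources used here), and the deposited log2 values are relative to the siNT mean of each probe set: that mean lay within 0.00012 of 0 for every probe set. The table therefore carries no absolute signal, no probe set was filtered on brightness, and 0 columns were left without a sample. No pair of arrays held identical values.

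Of 22277 probe sets, 62 were controls, 2108 had no symbol and 1043 several symbols in the platform annotation. The 19064 with exactly 1 symbol, 19052 updated through Entrez identifiers to RefSeq, gave 11963 genes as means over probe sets, 4310 of them over several. Differences were tested with limma 3.58.1 (lmFit, eBayes) in R 4.3.3, with 4 group means over all 12 arrays, 8 residual and 4.32 prior degrees of freedom, and Benjamini-Hochberg adjustment over all genes of a comparison. Precision is limited by having 3 arrays a group. Tables were joined in Python 3.11.15 (pandas 2.3.3, numpy 2.4.6) and plotted with matplotlib 3.10.9. The fit was tested on simulated data.

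The members and lists were chosen with earlier results of these data known. Named were all members and their probe sets, the silenced genes, up to 4 called genes per list and comparison with the smallest adjusted p, and the 3 genes most like a member. CTH in siMESH1 vs siNT and the pairs of members were named after their values were seen. Alternatives covered array scaling, handling of probe sets, a block on the replicate number, the groups in the fit, the variance model, the call rule, the t-test at the study's fold threshold, and each array left out.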

Additional observations from a re-analysis of the deposited data

Results flagged for a closer look

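DERL1 was the member whose response to MESH1 siRNA differed between cells with and without ATF4 siRNA past the call. Its interaction was 0.549 (SE 0.071, 95% interval 0.395 to 0.703, adjusted p = 0.00025 by limma), with every siMESH1+siATF4 array below every siATF4 array and every siMESH1 array below every siNT array. The interaction was 0.279 with housekeeping mean centring and 0.406 with housekeeping median centring, both under the fold minimum. Its cause was not tested.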

How the results depend on the processing

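Members called in siMESH1 vs siNT numbered 2. They were 1 with array median centring, 1 with housekeeping median centring, 1 without probe sets that may cross-hybridise, 5 without the fold minimum, and 1 to 2 with single arrays left out. By single probe sets HERPUD1, DERL1 and also DNAJB9 were called. With housekeeping mean centring the count was again 2, but it held HERPUD1 and SEL1L. In siATF4 vs siNT 0 were called, against 1 with housekeeping mean centring, 1 without cross-hybridising probe sets, 1 by single probe sets and 4 without the fold minimum. In siMESH1+siATF4 vs siNT the 0 became 2 with housekeeping mean centring and 6 without the fold minimum. In siMESH1+siATF4 vs siMESH1 the 0 became 1 without cross-hybridising probe sets, 2 by single probe sets, 6 without the fold minimum, and 0 to 1 with single arrays left out. In siMESH1+siATF4 vs siATF4 the 0 became 1 without cross-hybridising probe sets, 1 by single probe sets and 2 without the fold minimum. In siMESH1 vs siATF4 the 2 became 7 without the fold minimum and 3 by single probe sets, and both housekeeping centrings kept a count of 2 with HERPUD1 in the place of DERL1. The interaction count of 1 stayed with housekeeping mean centring, but held HERPUD1 (-0.603) in the place of DERL1 (0.279). It became 0 with housekeeping median centring, 2 without the fold minimum and 0 without cross-hybridising probe sets. Leaving out those probe sets removes HERPUD1, DERL1, HSP90B1, SEL1L and DNAJC3 from the table, so its counts are out of 5 members. The 1 member then called in siMESH1 vs siNT was DNAJB9 (-0.601), which was not called in the main fit. The cause of the other changes was not tested.

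Calls over all genes numbered 980 for siMESH1 vs siNT (34.4% of them higher), against 3183 (91.2%) with housekeeping mean and 1903 (81.8%) with housekeeping median centring. The same 2 settings gave 1040 (69.4%) and 787 (42.9%) in siATF4 vs siNT, against 780 (38.2%), and 2003 (82%) and 1405 (67%) in siMESH1+siATF4 vs siNT, against 1154 (45.6%). They gave 817 (31.3%) and 825 (29.9%) in siMESH1+siATF4 vs siMESH1, against 730 (56%), and 207 (47.8%) and 220 (54.1%) in siMESH1+siATF4 vs siATF4, against 195 (21.5%). In siMESH1 vs siATF4 they gave 1384 (78.8%) and 1534 (83.2%), against 1036 (45.2%), and for the interaction 1595 (11.8%) and 643 (40.7%), against 516 (80.2%). Without the fold minimum the 7 comparisons had 4019, 3421, 4254, 3348, 1403, 4004 and 1424 calls, in the order siMESH1, siATF4 and siMESH1+siATF4 vs siNT, siMESH1+siATF4 vs siMESH1, siMESH1+siATF4 vs siATF4, siMESH1 vs siATF4 and the interaction. The methods' t-test called 0 members in the 4 comparisons where limma called 0, before and after adjustment. Over all genes it called 126 after adjustment in siMESH1+siATF4 vs siATF4. Of 81 calls among the named genes of the pathway and renal marker lists, 33 were lost or turned with a housekeeping centring and 39 under any alternative.

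The replicate block called 978 genes in siMESH1 vs siNT and left every member count as it was. Arrays of 1 number correlated between -0.191 and 0.095 in their deviations over 18 pairs, 0 of them over 0.1, so no pairing by number was seen. Such correlations cannot tell whether arrays of 1 number were handled together. Among arrays of different numbers the highest value was 0.243, for siMESH1 replicate 3 with siATF4 replicate 1. These arrays also stood apart for DNAJC3, and whether they share an array effect was not tested.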
